A study of Mus musculus with 24 samples.

Results

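The 8 genes described here are some of those for which the array carried 2 probes that differed in the same direction between Hira CKO (conditional knockout) and control muscle. They are the receptor gene Gprc5b, the kinase gene Jak1, the anion exchanger gene Slc26a6, the RNA-handling genes Pde12 and Trmt112, the HCF-1 regulator gene Hcfc1r1 and the zinc finger genes Zfp385b and Zfp428. Every probe whose platform symbol named 1 of these genes was taken, which gave 16 of 26423 probes and 8 of 17742 named genes, with exactly 2 probes for each gene. Both probes were higher in Hira CKO for Gprc5b, Hcfc1r1, Pde12 and Zfp428, and both were lower for Jak1, Slc26a6, Trmt112 and Zfp385b. The genes were chosen on this difference between the groups, so the differences below are a description and carry no test.

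The tibialis anterior, the shin muscle, was taken from 8 mice aged 6 weeks and its total RNA was hybridised to 24 arrays; the mice were on a C57BL6/J;129S1/SvImJ background and each had 3 arrays. The 4 control mice were Myf6 cre/+ with Hira flox/+, and the 4 Hira CKO mice were Myf6 cre/+ with Hira flox/-. Both groups therefore carried the cre driver of Myf6, a gene of differentiating and mature muscle fibres, and a floxed Hira allele. The other Hira allele was written as + in controls and as - in Hira CKO, so a control fibre with active cre keeps 1 copy. Cells without active cre keep the floxed allele in both groups, beside the + allele in controls and the - allele in Hira CKO. By these genotypes the groups also differ in Hira copies outside the fibres. The animal is the replicate, and sex was not given in the labels.

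The Hira probe was at 495 ± 48.9 in controls and 558 ± 38.9 in Hira CKO (SD, n = 4), a difference of 0.17 log2 (95% interval −0.02 to 0.36), so directions rest on the group labels. No source used here places that probe inside or outside the deleted stretch of Hira. All arrays had the same highest value, and their medians lay between 431.5 and 433.5. The 6 muscle fibre markers measured (Ckm, Acta1, Tnnt3, Tnni2, Mb and Actn3) had control means from 106789 to 275287, which fits the labelled tissue. In whole muscle, fewer cells of a type and less RNA per cell cannot be told apart.

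A short oligonucleotide probe reports a single stretch of a transcript, and it can miss isoforms that lack this stretch or catch RNA of another gene. A second probe at another stretch gives a separate reading of the same gene in the same RNA. HIRA is a chaperone that places the histone variant H3.3 into chromatin outside of DNA replication. The 8 genes are not known as a pathway and act in different parts of the cell: at the plasma membrane, in mitochondria, in tRNA and protein methylation, and in the nucleus.

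Promoter sequence was found for 8 of 8 genes in RefSeq (GRCm38.p6), as windows of 300 bases from 250 before to 50 after a gene start, 11 windows in all because Zfp385b has 4. The array measures RNA and not promoters, and the windows are shown because both probes of a gene moved together. The words searched for, on both strands, were picked after the sequences had been read, so no match is evidence for a factor. Capitals mark the word searched for in each line. The Hcfc1r1 window (chr17:23673358-23673657, plus strand) held 2 copies of ACTACAA, part of the longer site bound by ZNF143 and by the HCF-1 partner THAP11. The Zfp428 window (chr7:24506837-24507136, plus strand) held 2 copies of the octamer ATGCAAAT, the word bound by POU factors. The Jak1 window (chr4:101265174-101265473, minus strand) held the cAMP response element TGACGTCA.
Hcfc1r1: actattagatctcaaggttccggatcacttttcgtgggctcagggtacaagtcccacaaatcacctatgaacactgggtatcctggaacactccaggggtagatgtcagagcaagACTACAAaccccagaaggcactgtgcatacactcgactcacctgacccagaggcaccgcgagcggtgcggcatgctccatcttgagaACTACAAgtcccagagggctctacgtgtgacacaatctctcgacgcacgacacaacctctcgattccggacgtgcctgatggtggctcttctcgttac
Zfp428: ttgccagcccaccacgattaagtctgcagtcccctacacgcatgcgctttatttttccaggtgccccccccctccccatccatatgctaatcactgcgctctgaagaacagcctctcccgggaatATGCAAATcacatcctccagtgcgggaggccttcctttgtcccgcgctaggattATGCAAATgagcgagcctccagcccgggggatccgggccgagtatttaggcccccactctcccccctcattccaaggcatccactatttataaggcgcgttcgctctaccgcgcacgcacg
Jak1: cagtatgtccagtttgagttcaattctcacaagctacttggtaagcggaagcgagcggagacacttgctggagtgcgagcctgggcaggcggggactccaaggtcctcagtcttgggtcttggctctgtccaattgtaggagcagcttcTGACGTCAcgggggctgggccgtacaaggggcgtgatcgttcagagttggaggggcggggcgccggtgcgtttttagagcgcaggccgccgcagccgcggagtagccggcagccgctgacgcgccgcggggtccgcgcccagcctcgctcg

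Of 32851 RefSeq windows of this length, 3.24% held ACTACAA at least once and 0.177% at least 2 times. The copies in Hcfc1r1 began 135 and 48 bases before the start. The octamer was present in 1.74% of all windows and was there at least 2 times in 0.107%, and the copies in Zfp428 began 125 and 71 bases before the start. The word TGACGTCA was in 1.79% of all windows. Each of these words was in 1 of the 11 windows of the 8 genes. The GC box GGGCGG was in 6 of the 11 windows and in 35.7% of all windows. CCGGAAG, the core word of ETS factors, was in 1 of the 11, that of Pde12, and in 8.86% of all windows.

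Gprc5b encodes GPRC5B, an orphan class C receptor of the cell surface whose RNA is induced by retinoic acid in some cells. At probe mMC007259 the intensity was 1493, 1218, 1251 and 1750.1 in control animals 1 to 4 and 3374, 3479, 3267 and 3663 in Hira CKO animals 1 to 4. The lowest Hira CKO animal lay well above the highest control, and the groups did not overlap. The difference was 1.27 log2 (SE 0.115), a 2.42-fold higher level on the log2(value + 16) scale used throughout. At probe PH_mM_0015123 the intensity was 138, 145, 117 and 425 in controls and 298, 912, 903 and 861 in Hira CKO. Here control animal 4 lay above Hira CKO animal 1, so the groups overlapped. The difference was 1.83 log2 (SE 0.432, 95% interval 0.87 to 2.79). The 3 arrays of control animal 4 read from 418 to 435 and those of Hira CKO animal 1 from 266 to 326, so the departures were shared by all arrays of these animals. Without control animal 4 the difference was 2.22 log2, and without Hira CKO animal 1 it was 2.21.

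Jak1 encodes JAK1, a tyrosine kinase that sits on cytokine receptors of the interferon and interleukin-6 families and phosphorylates STAT proteins. At probe PH_mM_0014230 the intensity was 11734, 13827, 13643 and 13668 in controls and 8189.6, 8897, 7423 and 8289 in Hira CKO. At probe PH_mM_0005303 it was 376, 389, 417 and 384 in controls and 288, 254, 274 and 222 in Hira CKO. All Hira CKO animals were below all controls at both probes. The difference was −0.69 log2 (SE 0.086) at the former and −0.57 log2 (SE 0.088) at the latter, the smallest of the 16 in size.

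Slc26a6 encodes SLC26A6, an exchanger of chloride, bicarbonate and oxalate. At probe PH_mM_0000732 the intensity was 1099, 1191, 1301 and 1145 in controls and 495, 624, 542 and 690.3 in Hira CKO, a difference of −1.0 log2 (SE 0.108). At probe PH_mM_0014513 it was 909, 903, 896 and 800.3 in controls and 479, 501, 453 and 637 in Hira CKO, a difference of −0.76 log2 (SE 0.103). The groups did not overlap at either probe. Hira CKO animal 4 was the highest of its group at both, and its 3 arrays at the latter probe were spread from 478 to 807.

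Pde12 encodes PDE12, a phosphodiesterase that removes poly(A) from mitochondrial RNA and degrades 2-5A, the messenger of the antiviral OAS enzymes. At probe PH_mM_0013715 the intensity was 867, 1062, 1097 and 935 in controls and 1961, 2091, 1854 and 2475 in Hira CKO, a difference of 1.07 log2 (SE 0.110). At probe mMR028519 it was 128, 124, 142 and 147 in controls and 290.2, 279.9, 286 and 202 in Hira CKO, a difference of 0.88 log2 (SE 0.119). Hira CKO animal 4 was the highest of its group at the former probe and the lowest at the latter. The groups did not overlap at either probe.

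Trmt112 encodes TRMT112, a small activating subunit of several methyltransferases that act on tRNA, ribosomal RNA and the release factor of translation. At probe PH_mM_0005044 the intensity was 1598, 1771, 1910.1 and 1543 in controls and 1051, 1059, 782 and 1031 in Hira CKO. At probe PH_mM_0007278 it was 1267, 1083, 1142 and 1088 in controls and 745, 643, 569 and 693 in Hira CKO. All Hira CKO animals were below all controls at both probes, and Hira CKO animal 3 was the lowest at both. The difference was −0.79 log2 at each probe (SE 0.114 and 0.098), and these 2 differences lay 0.0061 log2 apart, the closest of the 8 genes.

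**Figure D1:**
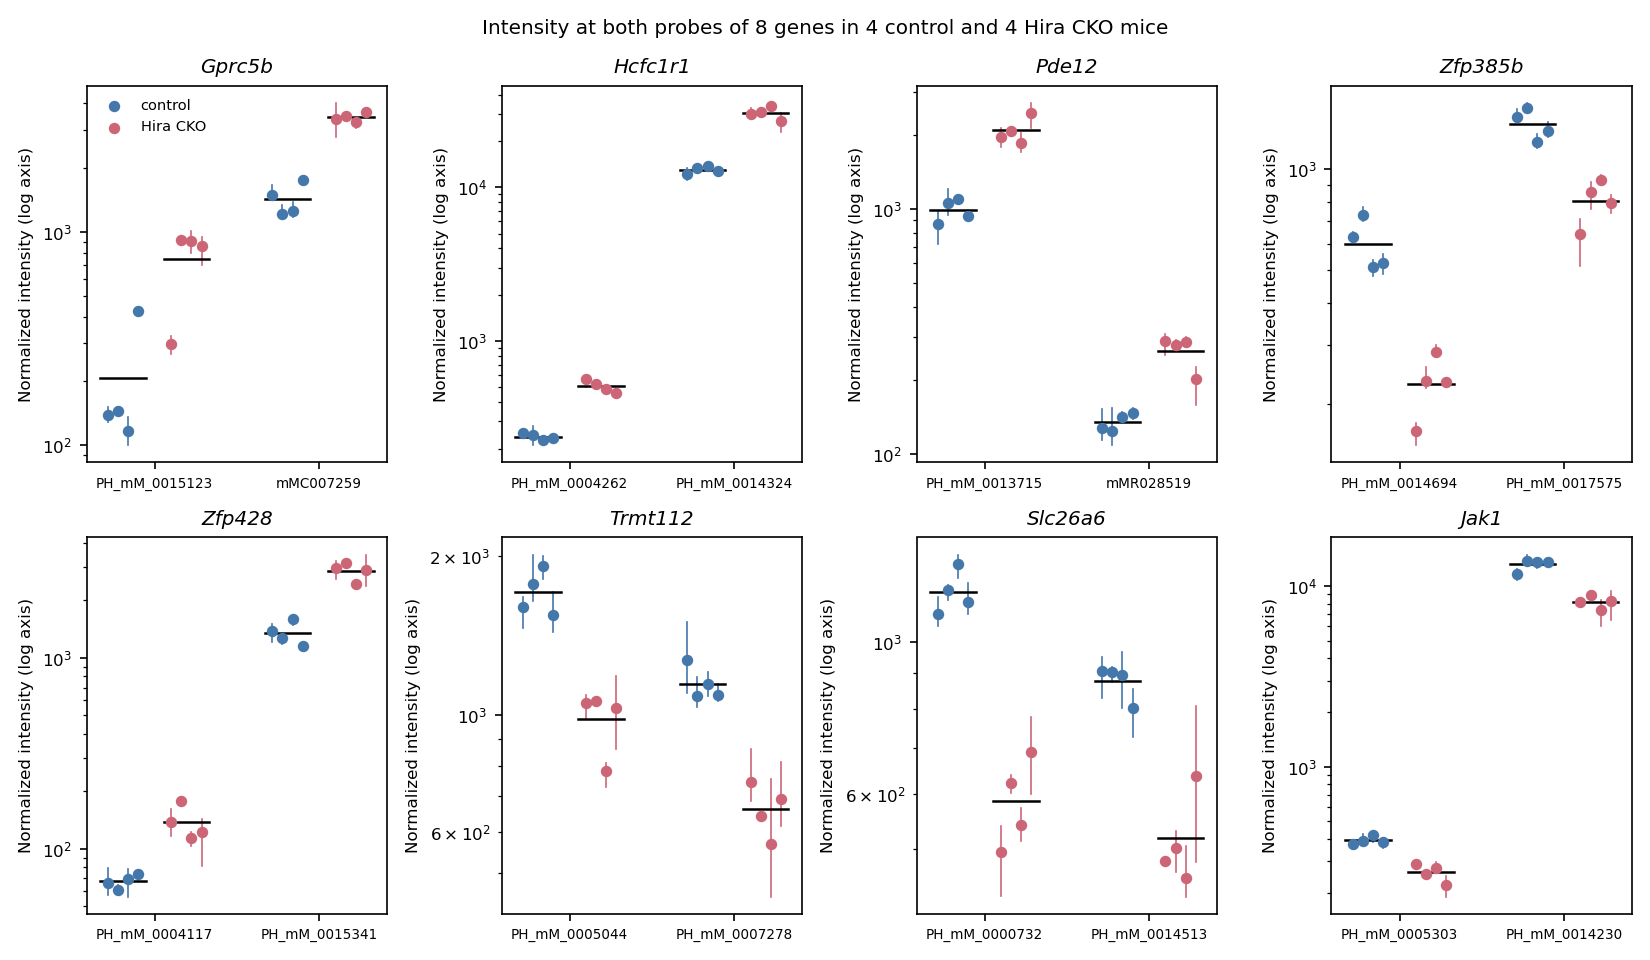
Each panel shows 1 gene at its 2 probes (x axis, probe name), with the normalized intensity on a log y axis; a point is the mean of the 3 arrays of an animal, its thin bar runs from the lowest to the highest array, and the black line is the group mean of 4 animals. Blue control and red Hira CKO points are apart at 15 of 16 probes, and at Gprc5b probe PH_mM_0015123 control animal 4 (425) lies above Hira CKO animal 1 (298).

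Hcfc1r1 encodes HCFC1R1, a regulator of HCF-1, a nuclear cofactor of transcription that it binds and carries out of the nucleus. At probe PH_mM_0014324 the intensity was 12157, 13386, 13737 and 12724 in controls and 29856, 30703, 33761 and 27068 in Hira CKO. At probe PH_mM_0004262 it was 252, 245, 228 and 233 in controls and 566, 528, 488 and 462 in Hira CKO. The groups did not overlap at either probe, and the lowest Hira CKO animal stood far above the highest control. The difference was 1.22 log2 (SE 0.085) at the former and 1.04 log2 (SE 0.080) at the latter.

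Zfp385b encodes ZFP385B, a zinc finger protein related to Zfp385a, a partner of p53. At probe PH_mM_0014694 the intensity was 627, 729, 511 and 524 in controls and 165, 234, 285 and 232 in Hira CKO, a difference of −1.33 log2 (SE 0.161). At probe PH_mM_0017575 it was 1429, 1523, 1208 and 1302 in controls and 639.9, 855, 928 and 792 in Hira CKO, a difference of −0.76 log2 (SE 0.122). The groups did not overlap at either probe. Control animal 2 was the highest control and Hira CKO animal 1 the lowest Hira CKO animal at both probes.

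Zfp428 encodes ZFP428, a small zinc finger protein with no established role. At probe PH_mM_0015341 the intensity was 1377, 1269, 1592 and 1151 in controls and 2945, 3131, 2428 and 2888 in Hira CKO, a difference of 1.07 log2 (SE 0.114). At probe PH_mM_0004117 it was 66.0, 61.2, 69.4 and 73.8 in controls and 138, 178, 114 and 122 in Hira CKO, a difference of 0.86 log2 (SE 0.123). The groups did not overlap at either probe. The latter probe was among the dimmest 30% on the array, so the added 16 shrinks its difference most.

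**Figure D2:**
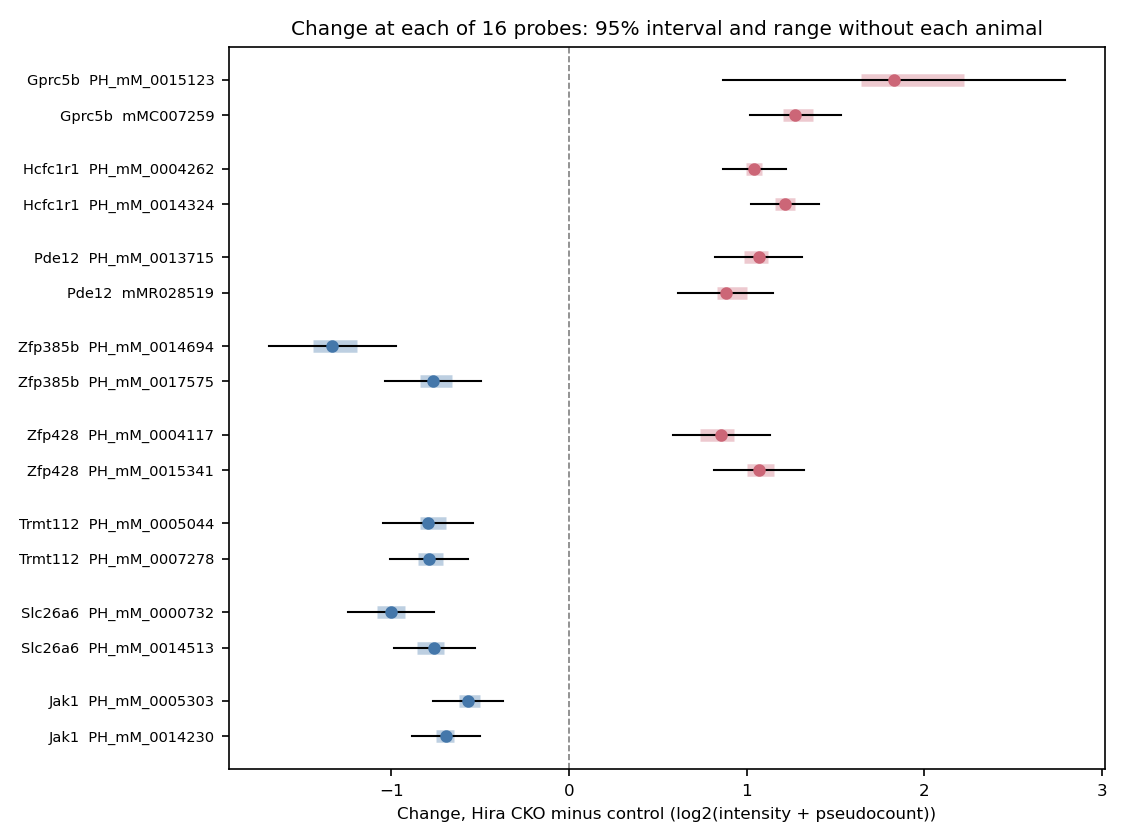
The x axis gives the change at each of the 16 probes (Hira CKO minus control, log2(intensity + 16)) and the y axis the gene and probe; points are estimates, thin black lines their 95% intervals, and pale bars the range over 8 fits that each left out 1 animal. Every interval stays on 1 side of 0, and the widest is that of Gprc5b probe PH_mM_0015123 (0.87 to 2.79).

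All 16 probes passed an adjusted p of 0.05 in the limma fit over the whole array, where 20.6% of all probes passed (10.5% higher and 10% lower). The groups did not overlap at 15 of the 16, against 24.8% of all probes. Both counts follow from how the genes were chosen. The median difference was 1.07 log2 over the 8 higher and −0.78 log2 over the 8 lower probes, beside a median of 0.43 and −0.48 log2 over all probes that passed in each direction. The spread of arrays within an animal had an SD from 0.080 log2 (Zfp385b, PH_mM_0014694) to 0.200 (Zfp428, PH_mM_0004117). For each of the 16 probes, the 20 probes nearest in number had a median difference between −0.17 and 0.12 log2, and from 0 to 8 of the 20 passed.

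The sizes of the difference at the 2 probes of a gene were then set side by side. They lay 0.57 log2 apart for Zfp385b (SE 0.067 from the animals' own probe-to-probe differences) and 0.56 log2 apart for Gprc5b (SE 0.479). The gap was 0.24 log2 for Slc26a6 (SE 0.085), 0.21 for Zfp428 (SE 0.141), 0.19 for Pde12 (SE 0.226), 0.17 for Hcfc1r1 (SE 0.103) and 0.13 for Jak1 (SE 0.118). For Zfp385b and Slc26a6 the gap was more than 2 of its SE, although both probes had the same direction. The genes were chosen for alike differences, so these gaps have no test.

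On the array 1970 genes had exactly 2 probes. Both probes passed in the same direction for 87 of them (4.42%), 51 higher (2.59%) and 36 lower (1.83%), and both passed in opposite directions for 26 (1.32%). A further 587 (29.8%) had 1 probe that passed and 1270 (64.5%) had none, while 1095 (55.6%) had the same sign at both probes, passed or not. The count of 87 was lower, from 49 to 76, in all 8 fits that left out 1 animal and so had fewer animals. It was 49 without control animal 3 or without Hira CKO animal 1, 55 without Hira CKO animal 2 and 57 without control animal 2. The count of 26 was 28 without control animal 1 and between 7 and 17 without each other animal. All 8 genes described passed at both probes in each of these 8 fits.

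Ordered by the smaller of the 2 differences, Gprc5b held rank 1 among the 87 and Hcfc1r1 rank 3, with Pde12 and Zfp428 at ranks 6 and 7, Trmt112, Zfp385b and Slc26a6 at ranks 9 to 11, and Jak1 at rank 17. The 9 genes that are not among the 8 but stand above Jak1 were Pdlim7 (−1.05 and −1.24 log2), Tbx1 (−1.03 and −1.02), Col24a1 (0.92 and 1.00), Ppp1r14bl (1.39 and 0.80), Lgalsl (0.73 and 0.70), Gadd45b (0.70 and 0.99), Cdk20 (−0.73 and −0.67), Mchr1 (0.95 and 0.61) and Snx12 (−0.60 and −1.54). Just below Jak1 came Mfsd3 (0.61 and 0.56 log2). The 8 genes are thus a part of those that were alike at both probes, and not the set above a fixed size.

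**Figure D3:**
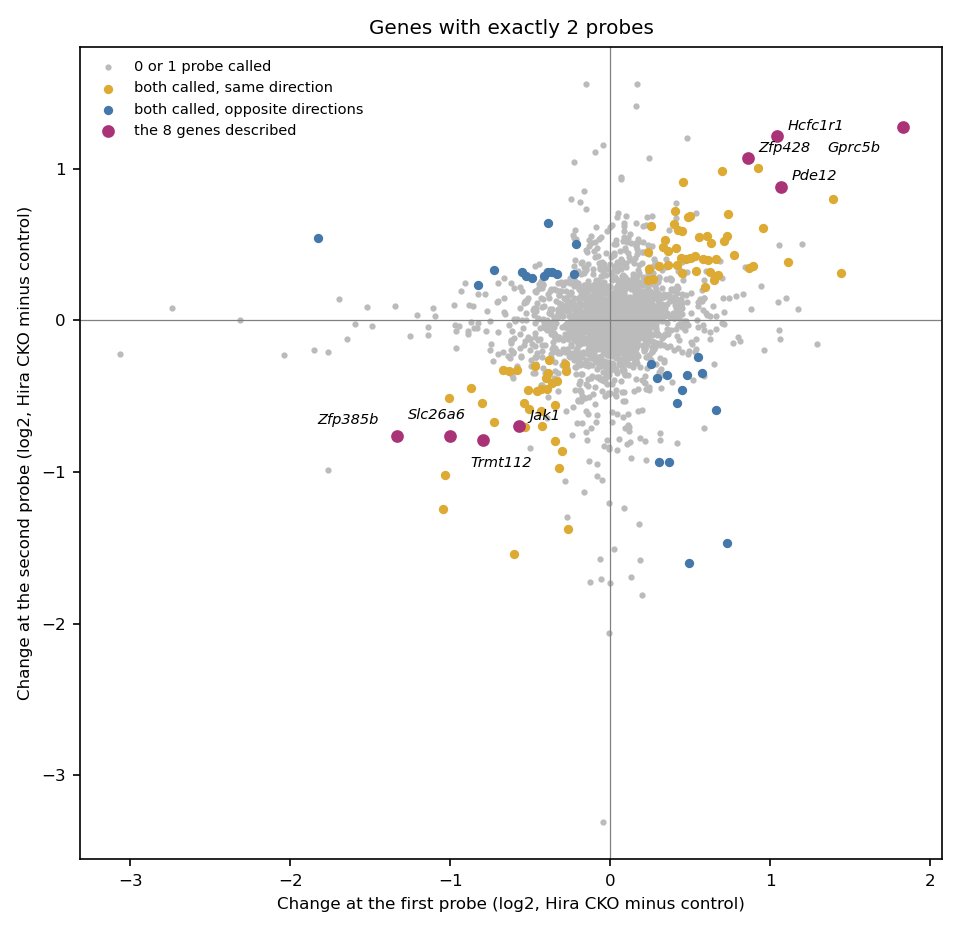
Each point is 1 of 1970 genes with exactly 2 probes, with the change at the first probe on the x axis and at the second on the y axis (log2, Hira CKO minus control; probes ordered by name). Yellow points are genes called alike at both probes, blue points the 26 called in opposite directions, and the 8 genes described (purple) lie in the upper right and lower left, from Gprc5b (1.83 and 1.27) to Jak1 (−0.57 and −0.69).

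A measure that the choice of genes did not use is whether the 2 probes also follow each other among animals of the same group. Each animal's log2 value was taken as a deviation from its group mean, and the deviations at the 2 probes were correlated over 8 animals, with exact permutation (two-sided, 576 pairings within groups) and adjustment over the 8 genes. For Zfp385b Pearson's r was 0.97 (n = 8, exact permutation p 0.00174, the smallest these pairings can give; adjusted p 0.0139) and Spearman's rho was 0.98 (exact permutation p 0.00347, adjusted p 0.0278). The animals deviated to the same side at both probes in 7 of 8 cases. Without the 2 animals farthest from the median at the first probe by name, Hira CKO animals 1 and 3, r was 0.93. Without each animal in turn it was between 0.95 and 0.98. With the median of the 3 arrays of an animal in place of their mean, r over the 8 animals was 0.93 and no longer passed (exact permutation p 0.00694, adjusted p 0.0556).

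For the other 7 genes the correlation did not pass. Pearson's r was 0.71 for Slc26a6 (rho 0.45), 0.66 for Gprc5b (rho 0.48), 0.58 for Trmt112 (rho 0.48) and 0.43 for Zfp428 (rho 0.57). It was 0.02 for Hcfc1r1 (rho −0.12), −0.04 for Jak1 (rho 0.0) and −0.61 for Pde12 (rho −0.57). Their exact permutation p ran from 0.0903 (Gprc5b) to 0.970 (Hcfc1r1) for r, with adjusted p from 0.296, and adjusted p from 0.463 for rho. Without the 2 animals farthest at the first probe, r was 0.41 for Slc26a6, 0.49 for Gprc5b, −0.35 for Trmt112 and −0.12 for Zfp428. In the same way r was −0.69 for Hcfc1r1, −0.08 for Jak1 and −0.32 for Pde12. The positive values for Trmt112 and Zfp428 and the near-zero value for Hcfc1r1 thus rest on those 2 animals. For Hcfc1r1 the SD of animals within a group was 0.060 to 0.135 log2, beside 0.104 and 0.105 for single arrays within an animal. For Jak1 it was 0.062 to 0.156, beside 0.102 and 0.153. For Pde12 it was 0.110 to 0.242, beside 0.140 and 0.164. For Zfp385b it was 0.146 to 0.305, beside 0.080 and 0.118. For Slc26a6 it was 0.086 to 0.207, beside 0.105 and 0.162. For Gprc5b it was 0.072 to 0.796, beside 0.141 and 0.128. For Trmt112 it was 0.099 to 0.206, beside 0.127 and 0.192. For Zfp428 it was 0.092 to 0.263, beside 0.200 and 0.138. Array noise can lower r where animals differ little, and its part in r was not tested.

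Single animals also set several of the values of r. For Pde12 r was 0.02 without Hira CKO animal 4, the animal highest at 1 probe and lowest at the other. For Trmt112 it was −0.14 without Hira CKO animal 3. For Hcfc1r1 it was −0.84 without Hira CKO animal 4 and −0.00099 without Hira CKO animal 2. For Jak1 it was 0.20 without Hira CKO animal 3 and 0.0041 without Hira CKO animal 2. For Gprc5b it was 0.19 without control animal 4, and for Slc26a6 it was 0.33 without Hira CKO animal 4. For Zfp428 it was 0.19 without Hira CKO animal 3, 0.20 without Hira CKO animal 2 and 0.73 without control animal 4. As a description, the median r was 0.51 over the 8 genes, 0.35 over the other 79 genes called alike and 0.22 over all 1970 genes with 2 probes, with quartiles of −0.18 and 0.58. Genes share the same 8 animals, so these medians are not independent samples.

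**Figure D4:**
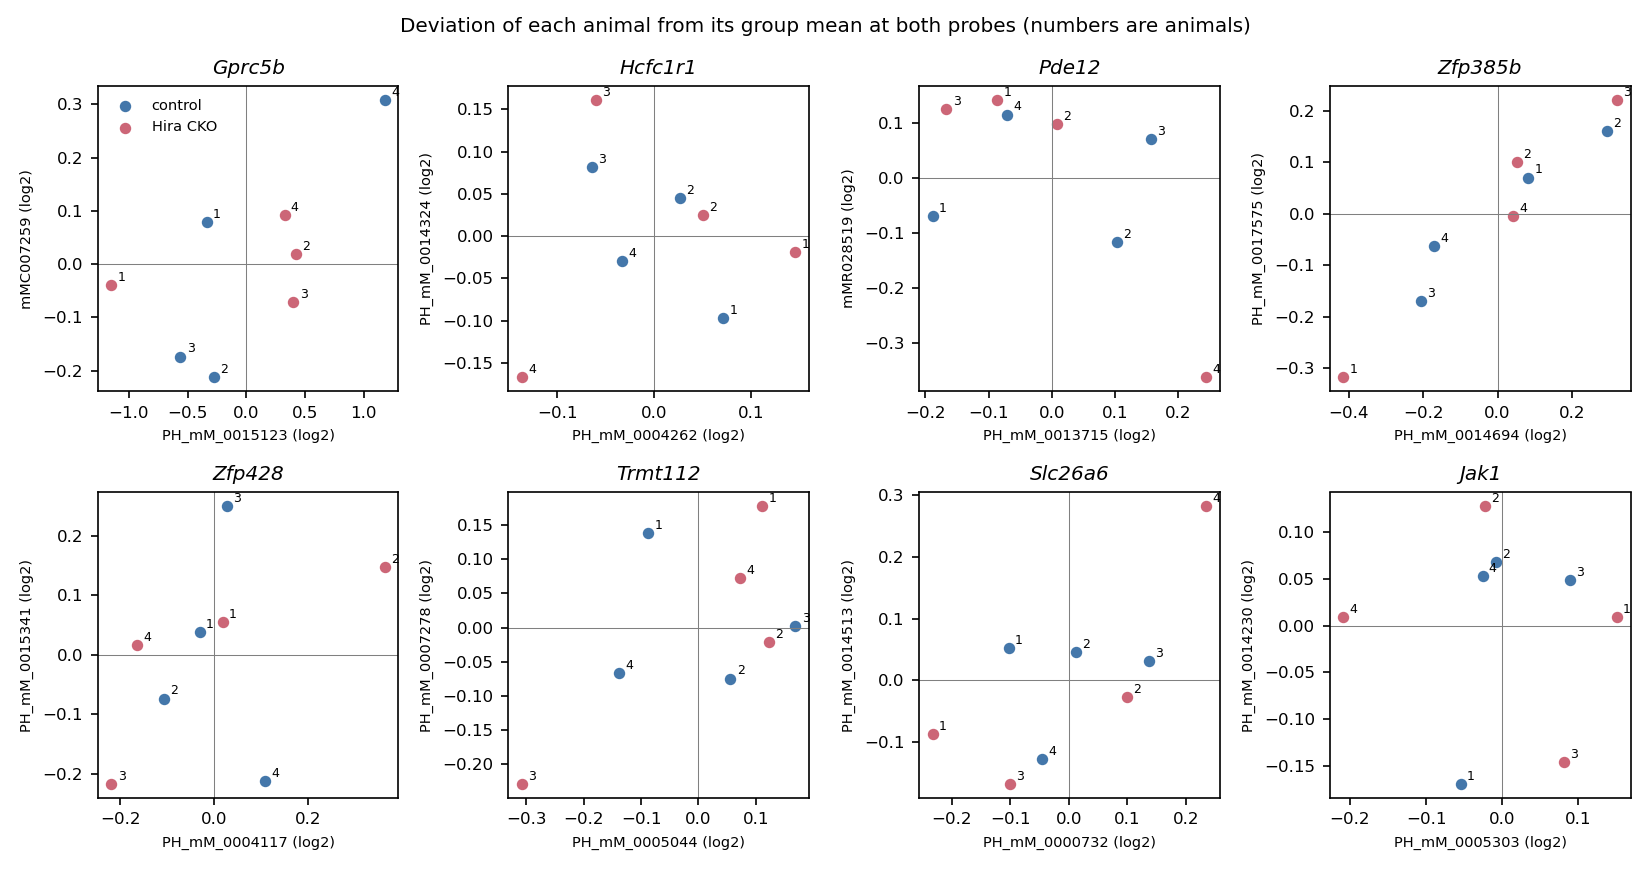
Each panel shows 1 gene, with the deviation of each animal from its group mean at the first probe (x axis, log2) and at the second probe (y axis, log2); numbers are animals, blue is control and red is Hira CKO. The 8 animals of Zfp385b lie close to a rising line (r = 0.97), those of Gprc5b and Slc26a6 rise more loosely (0.66 and 0.71; 0.19 without control animal 4 and 0.33 without Hira CKO animal 4), and those of Hcfc1r1 and Jak1 show no slope (0.02 and −0.04).

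For each gene the named probes of other genes with the most alike deviations were listed, by the mean of r with both of its probes over the 8 animals. With 8 animals and all named probes searched, high values are found for nearly any pattern, and these are a description only. Zfp385b was most like Lcn5 (mean r 0.95) and Grik1 (0.94), Slc26a6 most like Cwc15 (0.92) and Mir204 (0.90), and Gprc5b most like Lingo4 (0.88) and Abhd15 (0.88). Trmt112 was most like Atg4c (0.86) and Hspb11 (0.86), Zfp428 like Dnajc28 (0.83) and Tmem250-ps (0.82), and Hcfc1r1 like Nudt12os (0.71) and Csn1s2b (0.71). Jak1 was most like a probe of Pdlim7 (0.68) and one of Zfp354a (0.68). The highest mean for Pde12 was 0.44 (Tmbim1), followed by 0.43 (Mir690), since its 2 probes went apart among animals.

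Genes that neighbour or overlap the 8 genes on their chromosomes were read from RefSeq, by order only. For comparison, 20.6% of all probes on the array passed, and a shared change of neighbours was not tested. Raver2, which overlaps Jak1 in the annotation and encodes an RNA-binding protein, fell by 0.95 log2 (SE 0.180, limma adjusted p 0.00558). Ak4, an adenylate kinase gene beyond Jak1, fell by 0.57 log2 at 1 probe (limma adjusted p 0.0172) and differed by −0.27 and 0.23 at the others, which did not pass. Irgq, next to Zfp428, rose by 0.68 log2 (limma adjusted p 0.000535). Celsr3, next to Slc26a6, fell by 0.39 log2 (limma adjusted p 0.0147), in the same direction as Slc26a6. Dnah12, next to Pde12, rose by 0.36 log2 (limma adjusted p 0.0166). Ccdc88b, next to Trmt112, rose by 0.39 log2 (limma adjusted p 0.00614), against the direction of Trmt112.

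None of the measured neighbours of Gprc5b (Iqck, Knop1 and Gpr139), Hcfc1r1 (Thoc6, Tnfrsf12a, Bicdl2 and Cldn6) or Zfp385b (Sestd1) passed in limma, and Cadm4 (Zfp428), Arf4 (Pde12), Tmem89 (Slc26a6) and the Trmt112 neighbours Prdx5, Esrra and Catsperz did not pass either. Thoc6, which overlaps Hcfc1r1 in the annotation, was at 844 in controls and 846 in Hira CKO. Whether RNA of an overlapping gene reaches a probe was not tested, because no source used here gives probe positions.

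The other genes of each pathway were described at their brightest probe, beside the 21.2% of all genes that passed there and their median of 0.0083 log2. Of 26 measured partners of JAK1, 2 rose and 2 fell (15.4%), with a median of −0.12 log2. The interleukin-6 receptor gene Il6ra rose by 1.45 log2, from 715 ± 218 to 1983 ± 623 (SD, n = 4; limma adjusted p 0.00575), and at its second probe by 0.31 log2 (limma adjusted p 0.0234). The transcription factor gene Stat5b fell by 0.89 log2, from 4397 ± 879 to 2355 ± 486 (SD, n = 4; limma adjusted p 0.00563). Il10rb rose by 0.38 log2, a call that leaving out 1 animal removed in 5 of 8 fits, and Pias1, an inhibitor of STAT proteins, fell by 0.28 log2, a call removed in 7 of 8, and its other probe (0.20) did not pass. The shared receptor subunit gene Il6st (−0.17 log2), the kinase genes Jak2 (−0.19) and Jak3 (−0.09), Stat3 (0.13) and the feedback inhibitor gene Socs3 (−0.19) did not pass. Ifngr2, an interferon gamma receptor subunit gene, did not pass at its brightest probe (−0.16 log2) and fell by 0.54 log2 at its other probe (limma adjusted p 0.00112).

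Of 5 measured genes, 2 relatives of Zfp385b and 3 targets of p53, 1 rose and 1 fell (40.0%), with a median of −0.29 log2. Zfp385a fell by 1.06 log2, from 4348 ± 584 to 2080 ± 303 (SD, n = 4; limma adjusted p 0.000495), in the same direction as Zfp385b. Zfp385c rose by 0.45 log2 (limma adjusted p 0.00944), and its other probe (0.02) did not pass. The p53 target genes Cdkn1a (−0.42 log2), Mdm2 (−0.29) and Bbc3 (−0.01) did not pass.

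Of 15 measured genes of HCF-1 and its partners 1 rose and 2 fell (20%), with a median of −0.0090 log2. Ogt, the enzyme that attaches O-GlcNAc and cleaves HCF-1, rose by 0.59 log2, from 2440.3 ± 291 to 3664 ± 239.6 (SD, n = 4; limma adjusted p 0.00256). Creb3, a membrane-bound transcription factor that binds HCF-1, fell by 0.41 log2 (limma adjusted p 0.00637), and Sin3a, a corepressor, fell by 0.33 log2 (limma adjusted p 0.00703). Hcfc1 itself (0.07 log2) and Thap11 (0.15), whose word stands in the Hcfc1r1 promoter window, did not pass.

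Of 14 measured methyltransferase genes that use TRMT112 or act beside it 1 rose and 0 fell (7.14%), with a median of 0.08 log2. The rise was in Mettl5, a ribosomal RNA methyltransferase that needs TRMT112 (0.42 log2, limma adjusted p 0.0357), opposite in direction to Trmt112, and leaving out 1 animal removed its call in 7 of 8 fits. Bud23, another enzyme that needs TRMT112, differed by 0.08 log2 and did not pass. Of 18 measured genes of RNA tail removal, mitochondrial RNA decay and the OAS pathway 1 rose and 2 fell (16.7%), with a median of −0.02 log2. Rexo2, a mitochondrial oligoribonuclease gene, fell by 0.45 log2, from 7464 ± 129 to 5483 ± 464 (SD, n = 4; limma adjusted p 0.00324). Lrpprc, which stabilises mitochondrial mRNA, fell by 0.40 log2 and Angel2 rose by 0.30 log2, calls lost in 5 and 6 of 8 such fits. Toe1, a deadenylase gene, differed by 0.24 log2 at its brightest probe, which did not pass, and fell by 0.44 log2 at its other probe (limma adjusted p 0.00743).

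Of 17 measured anion exchangers and carbonic anhydrases 2 rose and 1 fell (17.6%), with a median of 0.03 log2. Car14, a membrane carbonic anhydrase, fell by 1.06 log2, from 7961 ± 1354 to 3873 ± 929 (SD, n = 4; limma adjusted p 0.00429), in the direction of Slc26a6. Car2, the cytosolic form, rose by 0.46 log2, a call lost without control animals 2, 3 or 4. Slc26a3 rose by 0.29 log2 from a level of 30.8, near the added 16, a call lost in 6 of 8 such fits. Of 8 measured class C receptors 2 rose and 0 fell (25%), with a median of 0.11 log2. Gabbr1, a GABA-B receptor subunit gene, rose by 1.11 log2 (limma adjusted p 0.00104), while its other probe (−0.09) did not pass, and the calcium-sensing receptor gene Casr rose by 0.51 log2 (limma adjusted p 0.0114). Grm5, a glutamate receptor gene, did not pass at its brightest probe (0.04 log2) and rose by 0.53 log2 at its other probe (limma adjusted p 0.00112). The relatives Gprc5a (−0.56 log2), Gprc5c (0.18) and Gprc5d (0.02) did not pass.

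Some markers of the fibres and of other cells of the muscle differed between the groups. Of the 6 muscle fibre markers, Acta1, the skeletal muscle actin gene, fell by 0.55 log2 (limma adjusted p 0.00199) and Ckm, the muscle creatine kinase gene, fell by 0.28 log2 (limma adjusted p 0.0442), with the call of Ckm lost in 6 of 8 fits without 1 animal. Tnnt3, Tnni2, Mb and Actn3 did not pass. The sum of the 6 was 1154420 to 1335920 in controls and 1085070 to 1169220 in Hira CKO, and these ranges overlapped. The sum of 5 endothelial markers was 20835 to 23753 in controls and 16908 to 18726 in Hira CKO, where Kdr, Emcn and Pecam1 fell, and leaving out 1 animal removed the call of Pecam1 in 6 of 8 fits. The other 2 probes of Pecam1 (−0.21 and −0.22 log2) did not pass, nor did Cdh5 (−0.18) and Tie1 (−0.16). The sum of 4 lymphocyte markers was 1501 to 1699 in controls and 1983 to 2160 in Hira CKO, where Cd3e, Cd4 and Cd79b rose, with the calls of Cd79b lost in 7 and of Cd4 in 2 of those fits. Cd8a did not pass at its brightest probe (0.06 log2) or at its other probe (−0.06). The sums of 5 macrophage, 5 fibro-adipogenic, 3 smooth muscle, 3 adipocyte, 2 satellite cell and 2 Schwann cell markers overlapped between the groups, although in these lists Cx3cr1 (−1.61 log2) and Rgs5 (−1.11) fell and Itgam rose (0.40, a call lost in 6 of 8 fits). No marker was at 0 in any animal. The part of the fibres and of these cells in the differences of the 8 genes was not tested.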

How the data were processed

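Total RNA of 8 mice was measured on 1-colour arrays, per the labels from 5 micrograms of Cy5-labelled RNA. The authors deposited linear intensity values of 26423 probes on 24 arrays, with near-equal medians, so some normalization between arrays came before. No source used here names the scanner, background method or software; 50 values were at or below 0 and there were no detection calls. The number of animals, 4 in each group, limits the precision. Labels give no slide or scan date, so no batch could be checked.

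Negative values were raised to 0, log2(value + 16) was taken and the 3 arrays of an animal were averaged. The group difference was fitted with lmFit and eBayes (limma 3.58.1, R 4.3.3). Its p-values were adjusted by Benjamini-Hochberg across the whole table, and a probe passed at 0.05. Fold changes on this scale understate those of dim probes. Symbols came from the platform annotation (20377 probes) and were updated with RefSeq. The 8 genes and the gene lists were chosen with earlier results of these data known. Named were all probes of the 8 genes, the 2 most alike probes of other genes, list members that passed and genes next to the 8 in the ranking; list members that did not pass and chromosome neighbours were named after their values were seen. The fit and the correlation were tested on simulated data. Alternatives were other normalizations, filters, array handling, variance models, pseudocounts, thresholds, a Welch test and each animal left out. Python 3.11.15, SciPy 1.17.1 and matplotlib 3.10.9 were used.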

Additional observations from a re-analysis of the deposited data

Results flagged for a closer look

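Of 32 groups of 4 animals (16 probes in 2 groups), 6 held an animal far from the other 3, where chance gives about 1 in 20. At Gprc5b probe PH_mM_0015123 control animal 4 was at 425 with the next control at 145, and Hira CKO animal 1 was at 298 with the next at 861. At Pde12 probe mMR028519 Hira CKO animal 4 was at 202 with the next at 279.9. At Trmt112 probe PH_mM_0005044 Hira CKO animal 3 was at 782 with the next at 1031. At Slc26a6 probe PH_mM_0014513 control animal 4 was at 800.3 with the next at 896. At Jak1 probe PH_mM_0014230 control animal 1 was at 11734 with the next at 13643. The gap covered between 0.883 and 0.916 of the range of the 4 animals in these groups.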

How the results depend on the processing

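Under 27 other settings of the fit the 16 probes gave 431 values. The direction was kept in every one, and the call in 429. The exceptions were Gprc5b probe PH_mM_0015123 with a Welch test per probe (adjusted p 0.0907, calculated without moderation) and at a threshold of 0.01 (adjusted p 0.0153). One dim Zfp428 probe was left out by the filter on dim probes. With the animal number as a replicate block 16 probes were called and 8 genes alike, and 70 genes with 2 probes were alike and 21 opposite. Deviations of same-numbered animals correlated at 0.30, 0.09, −0.06 and 0.07, and 3 of 8 animals matched their own number best. No test was run on these values, so whether the numbers pair the animals stays unknown. The block changed no call of the 8 genes.

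The count of 87 genes called alike and of 26 called opposite became 152 and 40 with all arrays and the animal as a random block, 32 and 6, 33 and 3, and 40 and 7 with only array 1, 2 or 3, 27 and 8 with the Welch test, 29 and 2 at a threshold of 0.01 and 154 and 60 at 0.10. The alike and opposite counts were 74 and 13 with the median of the 3 arrays, and 118 and 42 with array weights. Without each animal the counts ranged from 49 to 76 and from 7 to 28.

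For Zfp385b r was 0.93 with the median of the 3 arrays (adjusted p 0.0556) and 0.93 without the 2 farthest animals (adjusted p 0.167), and 0.95 to 0.98 without each animal. With 7 animals the smallest adjusted p is 0.0556 and with 6 animals 0.167, so those fits could not pass. For Hcfc1r1 r was −0.12 with the median of the 3 arrays, as was rho, and −0.69 without the 2 farthest animals, where Zfp428 was at −0.12 and Trmt112 at −0.35. Without each animal r ranged from −0.84 to 0.32 for Hcfc1r1, −0.29 to 0.20 for Jak1, −0.84 to 0.023 for Pde12, −0.14 to 0.80 for Trmt112, 0.19 to 0.81 for Gprc5b, 0.33 to 0.80 for Slc26a6 and 0.19 to 0.73 for Zfp428. The cause was not tested.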
